A study of Mus musculus with 8 samples.

Results

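Progesterone-responsive genes of the mouse uterus were followed as a set of 10, chosen by name as targets of the hormone: Hand2, Gata2, Sox17, Il13ra2, Acod1, Fkbp5, Zbtb16, Hdc, Lrp2 and Alox15. Each was represented by the single probe set on the array that names that gene alone, and all 10 were found among the 19938 genes so represented. All 10 also passed a filter on low intensity, as did 13039 genes in all. The pregnant group held 4 uteri of C57BL/6 females mated with stud males, taken on day 3 at 22 h with the mating night as day 0, in which no blue dye site was seen and from which blastocysts had been flushed. The pseudopregnant group held 4 uteri of C57BL/6 females mated with vasectomized males and taken at the same hour, so that neither group had an attached embryo. The males differed between the groups along with the embryos, and the 2 cannot be told apart. All 8 samples are labelled biological replicates, with nothing on whether uteri were pooled or mated on shared days, so p-values measure the spread between these samples.

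Progesterone, made by the ovary after mating with either kind of male, acts through the progesterone receptor Pgr, a nuclear receptor that is held ready by chaperones and binds DNA once the hormone is bound. In the mouse uterus it acts in epithelium and in stroma, ends the growth of the luminal epithelium that estrogen drives, and makes the uterus able to receive embryos. In the epithelium the transcription factors Gata2 and Sox17 act with the receptor on Ihh, a secreted hedgehog ligand that signals to the stroma. In the stroma the transcription factor Hand2 holds down fibroblast growth factors that would otherwise drive epithelial growth.

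Values are given as log2 of the authors' RMA intensity. They have no fixed zero, so levels of different genes are not set against each other. Array medians lay between 55.2 and 56.3 on the linear scale, and arrays of a group correlated at 0.984 to 0.994 across probe sets. The 8 epithelial, 8 stromal and 7 smooth muscle markers listed all passed the intensity filter, and 0 of 6 blastocyst markers did. Of the ovary markers only Inha, which is not specific to the ovary, passed, with 6.16 to 6.40 in pregnant uteri and 6.22 to 7.62 in pseudopregnant uteri. Along the principal component with the most variance (46.1%), pregnant replicate 2 lay at -26.7 and the other pregnant arrays at -6.63 to -4.9. Pseudopregnant replicate 1 lay at 20.3 and the other pseudopregnant arrays at 6.76 to 9.32. Results that rest on pregnant replicate 2 are therefore given with and without it. With 4 arrays in each group, their number limits the precision of every value.

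The comparison asks whether the presence of embryos, before they attach, alters the uterine programme that progesterone sets up. None of the 10 genes changed between pregnant and pseudopregnant uterus at an adjusted p under 0.05 (limma, Benjamini-Hochberg over 17494 probe sets), a threshold that 1.82% of all probe sets passed, 1.41% higher and 0.412% lower in pregnant uteri. Without pregnant replicate 2 again 0 of the 10 passed, against 0.577% of all probe sets (0.131% lower). Gata2 alone had an unadjusted limma p under 0.05, in the lower direction, against 23.7% of all probe sets in either direction and 9.43% lower. The log2 difference was above 0 for 4 genes and below 0 for 6, with a median of -0.17, against 0.00 over all probe sets tested. Without pregnant replicate 2 the median of the 10 was -0.07, against 0.01 over all probe sets tested. The receptor itself differed little. Pgr averaged 8.89 ± 0.13 in pregnant uteri and 8.86 ± 0.056 in pseudopregnant uteri (SD, n = 4 each), a log2 difference of 0.03 with a 95% interval of -0.13 to 0.19 (limma adjusted p = 0.81). What stood out among the 10 was the spread within the pregnant group, since Lrp2, Hdc, Alox15 and Sox17 were each far lower in pregnant replicate 2 than on any other array.

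**Figure D1:**
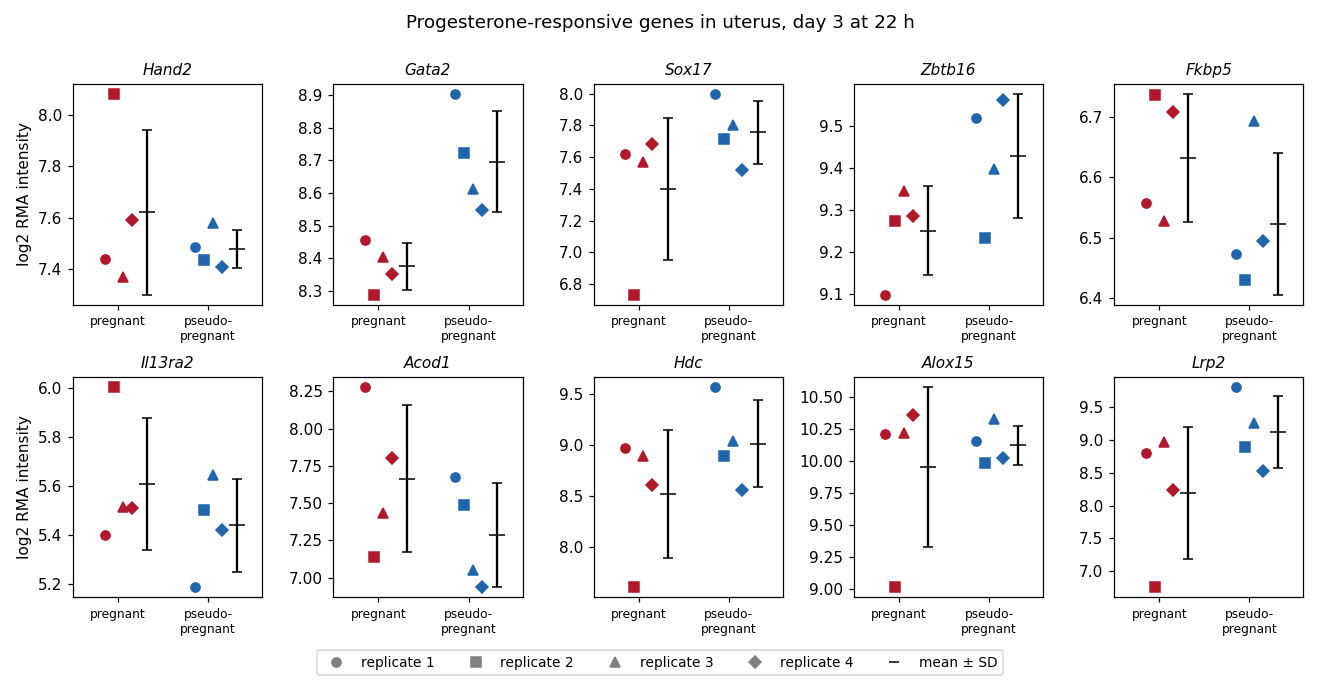
The log2 RMA intensity (vertical axis of each panel, with its own range) of the 10 progesterone-responsive genes is plotted for every array, with pregnant uteri in red and pseudopregnant uteri in blue, a symbol for each replicate number, and the mean ± SD (n = 4) beside each group. The groups overlap for every gene except Gata2, and the red square of pregnant replicate 2 lies well below all other points for Sox17, Hdc, Alox15 and Lrp2 and just below them for Gata2.

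The stretches around the start sites are shown for Hdc and Lrp2, which were lowest together in pregnant replicate 2, and for Gata2, whose groups did not overlap, so that elements which the receptor can bind may be looked for in their letters. They run from 250 bases before to 50 bases after the start, 5′ to 3′ on the gene's strand, from RefSeq on GRCm38.p6, and Gata2 has 2 starts there. The Hdc start used lies inside the listed span of the gene, which reaches position 126624025, and so is not its outermost 5′ end. Capitals mark the single arm TGTTCT of the hormone response element that progesterone and glucocorticoid receptors share.
Hdc, chr2:126618629-126618928, minus strand: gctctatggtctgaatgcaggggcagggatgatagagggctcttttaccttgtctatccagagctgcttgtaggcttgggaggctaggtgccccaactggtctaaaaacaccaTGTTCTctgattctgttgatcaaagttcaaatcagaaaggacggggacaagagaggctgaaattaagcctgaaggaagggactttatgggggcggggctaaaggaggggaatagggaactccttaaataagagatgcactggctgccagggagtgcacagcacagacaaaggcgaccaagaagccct
Lrp2, chr2:69585980-69586279, minus strand: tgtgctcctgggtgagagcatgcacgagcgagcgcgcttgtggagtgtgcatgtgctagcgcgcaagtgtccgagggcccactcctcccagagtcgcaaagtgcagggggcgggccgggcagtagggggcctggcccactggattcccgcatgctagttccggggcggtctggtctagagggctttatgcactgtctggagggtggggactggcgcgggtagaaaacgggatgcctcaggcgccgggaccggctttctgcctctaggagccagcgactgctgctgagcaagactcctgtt
Gata2, upstream start, chr6:88193641-88193940, plus strand: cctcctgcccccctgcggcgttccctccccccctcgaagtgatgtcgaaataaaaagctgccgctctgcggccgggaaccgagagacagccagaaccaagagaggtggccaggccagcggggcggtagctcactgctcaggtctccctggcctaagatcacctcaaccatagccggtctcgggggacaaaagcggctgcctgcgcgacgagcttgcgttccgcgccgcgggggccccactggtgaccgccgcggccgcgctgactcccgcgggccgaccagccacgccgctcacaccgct
Gata2, downstream start, chr6:88198414-88198713, plus strand: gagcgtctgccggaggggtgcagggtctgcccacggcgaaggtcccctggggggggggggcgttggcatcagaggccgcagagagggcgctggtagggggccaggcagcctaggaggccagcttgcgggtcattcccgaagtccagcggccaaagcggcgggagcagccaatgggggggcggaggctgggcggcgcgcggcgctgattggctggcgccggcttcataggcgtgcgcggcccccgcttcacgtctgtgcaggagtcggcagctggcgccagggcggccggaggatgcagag

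The RefSeq promoter table held 8 such windows for 7 of the 10 genes, namely Hand2, Gata2, Il13ra2, Acod1, Fkbp5, Hdc and Lrp2. Sox17, Zbtb16 and Alox15 were not matched. The full element, an arm GNACA followed after 3 bases by its reverse complement TGTNC and so alike on both strands, was found in 0 of the 8 windows and in 0.475% of the 32851 windows of the table. The single arm TGTTCT, or AGAACA for the other strand, was found in 1 of the 8, that of Hdc, and in 19% of all windows. In the Hdc window it began 137 bases before the start site used there. The full element is so rare over all windows that 0 of 8 could not decide whether the receptor acts on these genes. Bases outside the windows were not searched. Base composition differed widely within the set. The windows of Gata2 had 69.3% and 73.7% G and C with 32 and 29 CpG dinucleotides, that of Fkbp5 had 70.7% with 32 and that of Lrp2 65% with 20. The Hdc window had 50.7% with 3, that of Il13ra2 37.7% with 1 and that of Acod1 47% with 2, and the medians over all windows were 52.7% and 7.

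Gata2 was the gene of the set whose groups did not overlap. It lay at 8.46, 8.29, 8.40 and 8.35 in pregnant replicates 1 to 4, against 8.90, 8.72, 8.61 and 8.55 in pseudopregnant replicates 1 to 4. Every pregnant value was thus below every pseudopregnant value, which was also the case for 5.38% of all probe sets. The log2 difference was -0.32 ± 0.079 (SE), a level 0.801 times that of pseudopregnant uteri, and it missed the threshold (limma adjusted p = 0.062). Without pregnant replicate 2 it was -0.29 (limma adjusted p = 0.12), and with pseudopregnant replicate 1 left out as well -0.22 (0.17).

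Sox17, an HMG box transcription factor, was lower in pregnant replicate 2 than anywhere else. It lay at 7.62, 6.73, 7.57 and 7.68 in pregnant replicates 1 to 4, against 7.996, 7.71, 7.80 and 7.52 in pseudopregnant replicates 1 to 4. The other 3 pregnant values lay inside the pseudopregnant range. The difference of -0.36 ± 0.19 (SE, limma adjusted p = 0.29) became -0.13 without pregnant replicate 2, with a 95% interval of -0.36 to 0.09. With pseudopregnant replicate 1, the highest array, left out as well it was -0.054.

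Gata2 and Sox17 are also made by endothelium, so their values stand here beside those of endothelial markers. All 7 endothelial markers had differences below 0, with a median of -0.13, and 0 passed the threshold. Their mean per array was 8.20 to 8.44 in pregnant uteri and 8.47 to 8.60 in pseudopregnant uteri, with the lowest value in pregnant replicate 2. Their part in the values of Gata2 and Sox17 was not tested, and in whole uterus fewer cells of a type cannot be told apart from less RNA per cell. Of 6 measured GATA and SOX relatives 5 had differences below 0 and 0 passed, with a median of -0.13. The endothelial factor Sox18 differed by -0.26 ± 0.060 (SE, limma adjusted p = 0.058), with no overlap between groups. Gata6 differed by -0.17 (limma adjusted p = 0.18) and Gata4 by -0.19 (0.28).

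Hand2, the stromal factor, was close to level between groups on 7 of the 8 arrays. It lay at 7.44, 8.08, 7.37 and 7.59 in pregnant replicates 1 to 4, against 7.49, 7.44, 7.58 and 7.41 in pseudopregnant replicates 1 to 4. Only pregnant replicate 2 stood above the rest. The difference of 0.14 ± 0.13 (SE, limma adjusted p = 0.54) was -0.01 without that array, with a 95% interval of -0.17 to 0.15. Among the fibroblast growth factors that Hand2 represses, with their receptors and the partners of Hand2, 6 of 10 measured genes had differences above 0 and 0 passed, with a median of 0.02. Fgf2 lay at 6.79 to 7.40 in pregnant uteri and 6.40 to 6.78 in pseudopregnant uteri, without overlap, as was the case for 9.23% of all probe sets, and differed by 0.46 ± 0.13 (SE, limma adjusted p = 0.075). Fgf9 differed by 0.30 (limma adjusted p = 0.11) and the receptor Fgfr1 by 0.15 (0.25).

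Zbtb16, a zinc finger repressor that progestins and glucocorticoids induce, lay at 9.10, 9.27, 9.35 and 9.29 in pregnant replicates 1 to 4, against 9.52, 9.23, 9.40 and 9.56 in pseudopregnant replicates 1 to 4. The groups overlapped through pseudopregnant replicate 2. Its difference was -0.18 ± 0.083 (SE, limma adjusted p = 0.23) and was -0.18 without pregnant replicate 2 as well. Fkbp5, a co-chaperone that lowers the hormone affinity of steroid receptors and is induced by the same hormones, lay at 6.56, 6.74, 6.53 and 6.71 in pregnant replicates 1 to 4, against 6.47, 6.43, 6.69 and 6.49 in pseudopregnant replicates 1 to 4. The groups overlapped, and the difference was 0.11 ± 0.075 (SE, limma adjusted p = 0.40), with a 95% interval of -0.06 to 0.28. The 2 genes had opposite signs, and neither passed.

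Other genes that respond through DNA elements shared by the glucocorticoid and progesterone receptors had differences mostly below 0, without any past the threshold. Of 12 measured, 10 had differences below 0 and 0 passed, against 8648 below 0 of 17494 probe sets tested. Their median was -0.15, and -0.10 without pregnant replicate 2. The metallothionein Mt1 differed by -0.44 ± 0.15 (SE, limma adjusted p = 0.12), the NF-kappaB inhibitor Nfkbia by -0.27 (0.14) and the transcription factor Klf15 by -0.18 (0.14). Each of them was highest in pseudopregnant replicate 1. The glucocorticoid receptor Nr3c1 differed by -0.07 (limma adjusted p = 0.47) and Esr1, the estrogen receptor, by -0.07 (0.43). Of 8 measured chaperones and coactivators of the progesterone receptor 5 had differences above 0 and 0 passed, with a median of 0.05. The p23 co-chaperone Ptges3 differed by 0.22 (limma adjusted p = 0.11), the chaperone Hsp90aa1 by 0.28 (0.18) and the coactivator Ncoa1 by -0.09 (0.34). Of the enzymes that act on progesterone and other steroids 2 were measured. Hsd11b2, which inactivates glucocorticoids, differed by -0.18 (limma adjusted p = 0.21) and Srd5a3, of the steroid reductase family, by -0.04 (0.74).

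Lrp2, or megalin, is a large endocytic receptor that takes up vitamin carriers and other proteins from the lumen of epithelia. On the linear scale its intensity was 448, 108, 502 and 302 in pregnant replicates 1 to 4, against 899, 475, 611 and 368 in pseudopregnant replicates 1 to 4. It was lowest in pregnant replicate 2 and highest in pseudopregnant replicate 1, and the other 6 values overlapped. The mean log2 difference of -0.93 ± 0.45 (SE), the largest in size of the 10, was a level 0.527 times that of pseudopregnant uteri and did not pass (limma adjusted p = 0.24). Without pregnant replicate 2 it was -0.45, with a 95% interval of -1.07 to 0.17. With pseudopregnant replicate 1 left out as well it was -0.22. Of 10 measured partners of Lrp2 and lipoprotein receptor relatives 0 passed, 5 on either side of 0, with a median of -0.01. The retinol carrier Rbp4 differed by 0.25 (limma adjusted p = 0.11), the receptor chaperone Lrpap1 by -0.23 (0.19) and the receptor Vldlr by -0.12 (0.27).

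Hdc, the enzyme that makes histamine from histidine, and the gene with the TGTTCT arm in its window, was lowest and highest on the same arrays as Lrp2. It lay at 8.97, 7.60, 8.89 and 8.61 in pregnant replicates 1 to 4, against 9.57, 8.89, 9.03 and 8.55 in pseudopregnant replicates 1 to 4. The difference was -0.49 ± 0.30 (SE, limma adjusted p = 0.34), and -0.19 without pregnant replicate 2, with a 95% interval of -0.64 to 0.26. With pseudopregnant replicate 1 left out as well it was -0.0030. Hdc is also a gene of mast cells. The 3 mast cell markers that passed the filter, Kit, Tpsb2 and Cpa3, had a mean per array of 6.09 to 6.43 in pregnant uteri and 6.16 to 6.38 in pseudopregnant uteri, and 5 others, Mcpt4, Cma1, Tpsab1, Ms4a2 and Fcer1a, lay below the filter. In pregnant replicate 2 the mean of the 3 was 6.09, the lowest of the 8 arrays. Only Kit was itself lowest there (7.07), since Tpsb2 (5.79) and Cpa3 (5.42) were lower still in pregnant replicate 4 (5.74 and 5.23). The part of mast cells in the Hdc value was not tested. Of 3 measured genes of histamine breakdown and reception 0 passed. Hnmt, which methylates histamine, differed by -0.11 (limma adjusted p = 0.59), and the receptors Hrh2 and Hrh1 by -0.04 (0.73) and -0.02 (0.89). Aoc1, a histamine-degrading oxidase named after its values were seen, lay below the filter on 6 of 8 arrays. It reached 7.68 in pregnant replicate 2 and 6.02 in pregnant replicate 3, against 4.66 to 5.18 in pseudopregnant uteri.

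Alox15, the 12/15-lipoxygenase that oxidises polyunsaturated fatty acids, lay at 10.21, 9.02, 10.22 and 10.36 in pregnant replicates 1 to 4, against 10.16, 9.98, 10.33 and 10.02 in pseudopregnant replicates 1 to 4. The groups overlapped in a narrow band on every array but pregnant replicate 2, which lay below it. The difference was -0.17 ± 0.25 (SE, limma adjusted p = 0.71) and turned to 0.14 without that array, with a 95% interval of -0.05 to 0.34. Alox15 is also a gene of eosinophils and some macrophages. Of 5 eosinophil markers only Siglecf passed the filter, with 5.88 to 5.99 in pregnant uteri and 5.83 to 6.06 in pseudopregnant uteri. Below the filter, Ccr3 lay at 4.86 to 5.92 in pregnant uteri and 4.58 to 4.89 in pseudopregnant uteri, Il5ra at 3.78 to 4.21 and 3.51 to 3.86, Prg2 at 4.52 to 4.83 and 4.70 to 5.18, and Epx at 3.59 to 4.03 and 3.86 to 3.98, in the same order of groups. Their part in the Alox15 values was not tested. Of 8 measured lipoxygenases and leukotriene enzymes 0 passed. Alox12e, a related epidermal-type lipoxygenase gene that may share probes with its relatives, differed by -0.35 (limma adjusted p = 0.16), and its lowest value, 7.09, was that of pregnant replicate 2 as well. Without that array it differed by -0.22. Alox5ap, the partner of 5-lipoxygenase in leukocytes, differed by 0.24 (limma adjusted p = 0.096) and Lta4h by 0.13 (0.23).

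Acod1, which makes itaconate, is induced by progesterone in mouse uterine epithelium and by inflammatory stimuli in macrophages. It lay at 8.28, 7.14, 7.44 and 7.80 in pregnant replicates 1 to 4, against 7.67, 7.49, 7.05 and 6.94 in pseudopregnant replicates 1 to 4. The groups overlapped, and pregnant replicate 1 was highest. The difference was 0.38 ± 0.24 (SE, limma adjusted p = 0.36), 0.17 without pregnant replicate 1 and 0.55 without pregnant replicate 2 (limma adjusted p = 0.21). Of 10 macrophage markers 9 had differences above 0 and 6 rose, against 1.41% of all probe sets. Cd14 went the other way (-0.27, limma adjusted p = 0.24), and C1qa differed by 0.08 (0.46). Without pregnant replicate 2, 4 passed, against 0.577% of all probe sets. The means of the 10 per array were 7.24 to 7.44 in pregnant uteri and 6.99 to 7.04 in pseudopregnant uteri. The order of the pregnant arrays differed between the 2 measures, since pregnant replicate 1 had the lowest macrophage mean (7.24) and the highest Acod1, and pregnant replicate 2 the highest macrophage mean (7.44) and the lowest Acod1 of its group. Of 8 genes induced along with Acod1 in activated macrophages 4 were measured and 0 passed. Irf1 differed by -0.19 (limma adjusted p = 0.13), Cxcl1 by -0.19 (0.20) and Ptgs2 by 0.23 (0.74), while Il1b, Tnf, Nos2 and Il6 lay below the filter. Markers of natural killer cells were higher as well, with 5 of 5 measured past the threshold, against 1.41% of all probe sets. Without pregnant replicate 2, 3 passed, against 0.577%. The listed marker Klrb1c lay below the filter, at 4.55 to 5.21 in pregnant uteri and 4.19 to 4.73 in pseudopregnant uteri. The means of the 5 per array were 6.46 to 7.28 in pregnant uteri and 5.59 to 6.04 in pseudopregnant uteri, highest in pregnant replicate 2. None of 6 neutrophil markers passed the filter. The part of these cells in the Acod1 values was not tested.

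Il13ra2, a decoy receptor that binds interleukin 13, was dim, above the 40th percentile of the array on 7 of 8 arrays, where RMA compresses differences. It lay at 5.40, 6.01, 5.51 and 5.51 in pregnant replicates 1 to 4, against 5.19, 5.50, 5.65 and 5.42 in pseudopregnant replicates 1 to 4. Pregnant replicate 2 was highest, and the rest overlapped. The difference was 0.17 ± 0.14 (SE, limma adjusted p = 0.47), and 0.04 without that array. In the interleukin 4 and 13 pathway 1 of 6 measured genes rose, against 1.41% of all probe sets. This was the kinase Jak1, which serves many cytokine receptors, by 0.29 ± 0.056 (SE, limma adjusted p = 0.037), with 9.98 to 10.07 in pregnant uteri and 9.62 to 9.82 in pseudopregnant uteri. Its call was kept without pseudopregnant replicate 4 and ended when any other single array was left out (limma adjusted p = 0.057 to 0.095). The signalling receptor Il13ra1 differed by 0.04 (limma adjusted p = 0.85) and the transcription factor Stat6 by 0.01 (0.90).

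**Figure D2:**
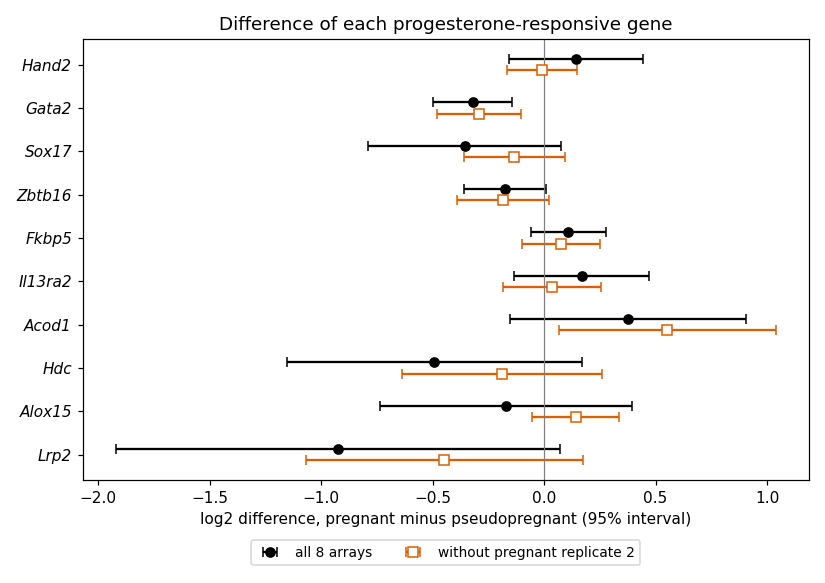
The log2 difference of pregnant minus pseudopregnant uterus (horizontal axis) is plotted for the 10 genes with its 95% interval from limma, as black circles with all 8 arrays and as open orange squares without pregnant replicate 2. The interval of Gata2 lies below 0 in both, and that of Acod1 lies above 0 only without pregnant replicate 2. The intervals of Lrp2, Hdc, Sox17, Alox15, Hand2, Il13ra2 and Acod1 are narrower without that array. Those of Gata2, Fkbp5 and Zbtb16 are slightly wider.

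Pregnant replicate 2 was then set against the other 7 arrays for all 10 genes. It was the lowest of the 8 arrays for 5 of the 10 genes (Gata2, Sox17, Hdc, Lrp2 and Alox15) and for 22% of all probe sets. It was the highest for 3 (Hand2, Il13ra2 and Fkbp5) and for 19.2% of all probe sets. It lay at least 0.5 below the lowest of the other 7 arrays for 4 genes, Lrp2 by 1.48, Alox15 by 0.96, Hdc by 0.95 and Sox17 by 0.78, and for 0.657% of all probe sets, a limit set after these values were seen. It lay at least 0.5 above the highest other array for 0 of the 10, although Hand2 came to 0.49, and for 0.937% of all probe sets. It is 1 sample, so it could not be tested against the others.

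Several genes of the hedgehog axis, on which Gata2 and Sox17 act, were low on the same array. Ihh lay at 7.32, 6.12, 6.96 and 7.19 in pregnant replicates 1 to 4, against 7.47, 7.30, 7.08 and 6.94 in pseudopregnant replicates 1 to 4. Hhip, a hedgehog-binding target of the pathway, was 6.09, 4.58, 5.85 and 6.26 in pregnant replicates 1 to 4, against 5.74 to 6.30 in pseudopregnant uteri. The transcription factor Gli1 (7.31) and the receptor Ptch1 (8.69), both targets of hedgehog signalling, were also lowest there, as was the signal transducer Smo by a small margin. That array was the lowest of the 8 for 22% of all probe sets. Smo, Gli2, Gli3 and Nr2f2 stood there between -0.14 and 0.16 relative to the pseudopregnant mean. Of the 8 measured genes of the axis 0 passed and 6 had differences below 0, with a median of -0.06 and of -0.01 without pregnant replicate 2. Ihh differed by -0.30 (limma adjusted p = 0.46), Hhip by -0.39 (0.48) and Gli1 by -0.16 (0.46). Without pregnant replicate 2 these differences were -0.04, -0.02 and -0.03 (limma adjusted p = 0.89, 0.96 and 0.88).

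Among the other stromal genes that answer to progesterone 0 of 6 passed, with a median of 0.10. Bmp2, a growth factor of decidual stroma, lay at 6.24, 8.37, 6.82 and 6.11 in pregnant replicates 1 to 4 and at 5.60 to 6.27 in pseudopregnant uteri, and was thus highest in pregnant replicate 2. It differed by 0.99 (limma adjusted p = 0.19), and by 0.49 without that array. From the same list Fst, a binding protein of activins, and Wnt4, a Wnt ligand, differed by 0.24 (limma adjusted p = 0.13) and 0.22 (0.21). Among the other epithelial genes induced by progesterone 1 of 5 measured rose, Cyp26a1, which breaks down retinoic acid, by 2.13 ± 0.36 (SE, limma adjusted p = 0.028), while Foxa2, a gland transcription factor, differed by -0.16 (0.37). The Cyp26a1 call ended when pregnant replicate 1, 2 or 4, or the first or second pseudopregnant array, was left out (limma adjusted p = 0.050 to 0.085). Over the 14 lists of related genes 2 of 88 measured genes rose, Cyp26a1 and Jak1, and 0 fell. Of all probe sets tested 1.41% rose and 0.412% fell, so these counts do not set the lists apart.

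The mean of the epithelial markers followed an order over the arrays like that of Lrp2 and Hdc. Of 8 markers 7 had differences below 0 and 0 passed, with a median of -0.21 and of -0.12 without pregnant replicate 2. Their mean per array was 7.77, 7.44, 7.79 and 7.75 in pregnant replicates 1 to 4, against 8.19, 7.93, 7.87 and 7.71 in pseudopregnant replicates 1 to 4. The mean was lowest in pregnant replicate 2 and highest in pseudopregnant replicate 1, as were Cldn3, Krt19, Cldn7, Krt8, Cldn4 and Cdh1. Krt18 was instead lowest in pregnant replicate 1 (7.73) and highest in pseudopregnant replicate 3 (7.90). Epcam was lowest in pseudopregnant replicate 4 (7.71) and highest in pregnant replicate 1 (8.24). In pregnant replicate 2 the marker mean stood at -0.49 relative to the pseudopregnant mean. Lrp2 stood there at -2.36, Hdc at -1.41, Alox15 at -1.10 and Sox17 at -1.02. The part of the epithelial share in these values was not tested. Stromal markers had a mean of 10.26 on that array, with 10.18 to 10.25 in the other pregnant uteri and 10.05 to 10.19 in pseudopregnant uteri. Among the 7 smooth muscle markers 1 fell, Myocd, a transcription factor of that lineage, by 0.27 (limma adjusted p = 0.0498), and it did not pass without pregnant replicate 2.

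**Figure D3:**
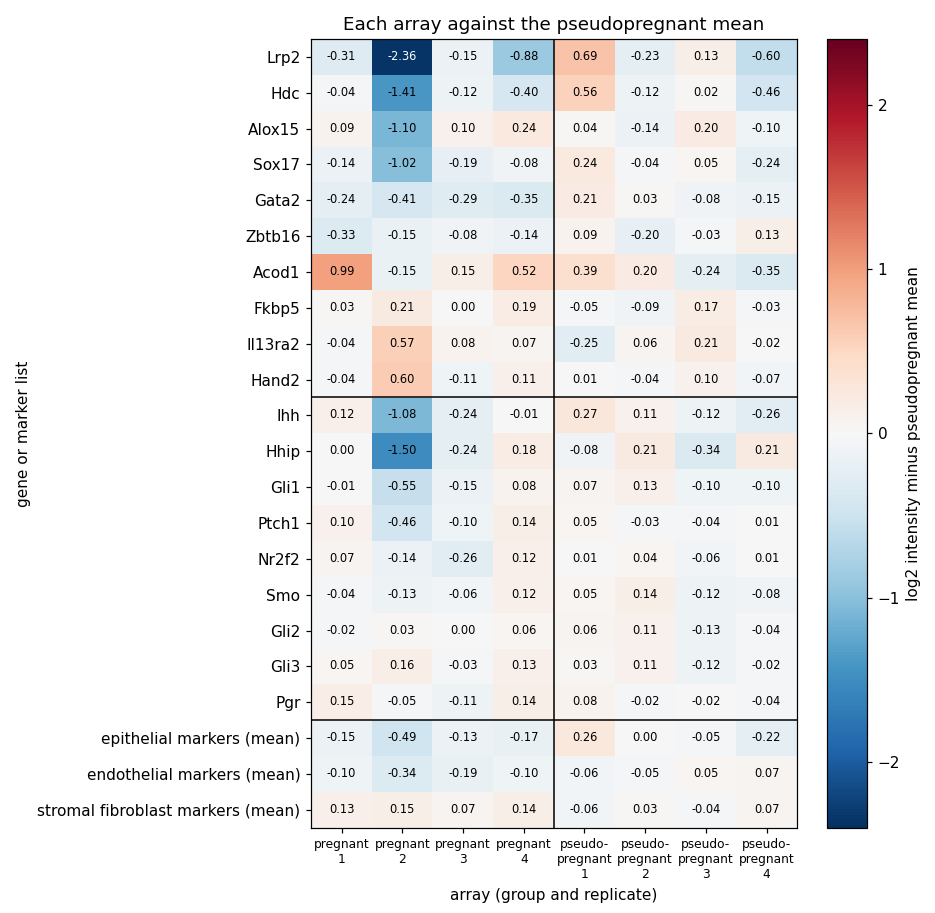
Each cell gives the log2 intensity of a gene, or the mean of a marker list, on one array (horizontal axis, pregnant arrays left of pseudopregnant) minus the pseudopregnant mean of that row, in red above and in blue below 0. The rows are the 10 progesterone-responsive genes, then 8 hedgehog axis genes and Pgr, then 3 marker lists, and the column of pregnant replicate 2 holds the lowest values of Lrp2 (-2.36), Hhip (-1.5), Hdc (-1.41), Alox15 (-1.10), Ihh (-1.08) and Sox17 (-1.02).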

How the data were processed

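Total RNA of 8 mouse uteri was profiled on expression arrays, 4 pregnant and 4 pseudopregnant, as titled. The authors deposited linear RMA intensities for each probe set, per the submitters' processing notes, and log2 was taken here. RMA compresses changes near background. The sources used here give no software settings and no days of mating or hybridisation, so batches could not be tested. RNA integrity numbers were given only as a range, 6.9 to 8.7. Their part in the values of pregnant replicate 2 was therefore not tested. Of 35556 probe sets, the 6612 lowest identifiers, a block without listed genes, were left out as array controls. Those above the 40th percentile of the array on at least 4 of 8 arrays were tested (17494).

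The fit was limma 3.58.1 (lmFit, eBayes; R 4.3.3), two-sided, with p-values adjusted by Benjamini-Hochberg over all tested probe sets. "Rose", "fell" and "passed" mean an adjusted p under 0.05. Where probe sets shared a gene, the brightest over 8 arrays was taken. The fit was first tested on simulated data. Figures used matplotlib 3.10.9. The 10 genes, 14 related lists (119 genes) and 11 marker lists were chosen with earlier results of these data known. The text names all members, the main steroid receptors, and up to 3 genes per related list with the smallest p and any that passed. Alternatives were 15 planned settings and 1 chosen after seeing the data.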

Additional observations from a re-analysis of the deposited data

Results flagged for a closer look

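Among the 20 groups of 4 values formed by the 10 genes, 2 held a value far from its group by Dixon's criterion, which weighs the gap to the nearest value against the range,, and both were those of pregnant replicate 2. Chance flags about 1 in 20 such groups. Sox17 was 6.73 on that array, against 7.57 to 7.68 in pregnant replicates 1, 3 and 4, and Alox15 was 9.02, against 10.21 to 10.36. The values of different genes on 1 array come from the same sample and are not independent of each other.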

How the results depend on the processing

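Of the 10 progesterone-responsive genes 0 were called, higher or lower, under any of 16 alternatives. Il13ra2 was not tested under the stricter filter, which it did not pass. Gata2 kept a difference between -0.37 and -0.22, with adjusted p of 0.054 to 0.17. Over all probe sets 247 were called higher and 72 lower. These counts were 42 and 12 without the filter, 140 and 34 with the replicate block, and 35 and 13 without both pregnant replicate 2 and pseudopregnant replicate 1, and array weights gave 120 lower. Single arrays left out gave 27 to 170 higher and 12 to 82 lower. With a repeated quantile normalization 67.5% of calls were higher, 216 against 104 lower, and 77.4% in the main setting. Among the related lists, 2 higher calls (Cyp26a1 and Jak1) became 0 without the filter, 1 with the stricter filter, which kept Jak1 and left Cyp26a1 out, 1 with the replicate block, where both were lost and Fgf2 passed (0.049), 0 without both outlying arrays and 0 to 2 without single arrays, and 0 lower calls became 1, Sox18, with repeated quantile normalization and with array weights. Samples of the same replicate number did not deviate together in every pair (correlations -0.10 to 0.24, and 2 of 4 pregnant arrays correlated best with their own number), so the number was not taken as a pairing. Differences turned sign for Hand2 (-0.010 to 0.23 without single arrays, -0.0074 without both outlying arrays), Alox15 (-0.30 to 0.14, and 0.15), Il13ra2 (-0.048 without both) and Ihh (0.050 without both). Without single arrays they also did for Pgr (-0.0092 to 0.080), Srd5a3 (-0.058 to 0.0076), Il13ra1 (-0.021 to 0.12), Stat6 (-0.024 to 0.032, and -0.023 with repeated quantile normalization), Ptgs2 (-0.048 to 0.50) and Hrh1 (-0.059 to 0.019). The cause was not tested. Averaged probe sets leave the 10 genes' own values as they are, since each has 1 probe set.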
